A study of Mus musculus with 35 samples.

Results

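The transgenic and the knockout muscle of young mice were compared directly. The 11 libraries concerned, of 35 in all, were those labelled mTG at 3 months (n = 6, labelled PGC-1α transgenic) and those labelled mKO at 3 months (n = 5, labelled PGC-1α knockout). They were chosen by genotype and age and by no measured value, though with earlier results of these data known. Every library came from the whole gastrocnemius, the large calf muscle, of a male mouse, and RNA sequencing was made from its total RNA with a TruSeq kit. Wild-type libraries (WT) of 3 months (n = 6) are given as a reference level, and the same genotypes at 24 months (n = 6 each of mTG and mKO) as a second comparison that shares no library with the young one. The labels do not state the part of the gene deleted, the promoter of the transgene, a Cre line, the cells concerned, the strain or any pooling of animals. The columns of the transgenic libraries begin with MCK, which the labels do not explain.

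PGC-1α, the product of Ppargc1a, is a transcriptional coactivator: it does not bind DNA itself but is recruited by factors such as the estrogen-related receptors, the peroxisome proliferator-activated receptors and nuclear respiratory factor 1, and raises transcription of their targets. In skeletal muscle it is induced by exercise and is best known for mitochondrial biogenesis, fatty acid oxidation, capillary growth and features of oxidative fibres. The proteins of the respiratory chain come from both genomes: most are encoded in the nucleus and imported, and a few are encoded in mitochondrial DNA and made by the mitochondrial ribosome.

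Values are TPM, transcript abundance per gene corrected for length, in which every column has the same fixed total. They were divided by a factor per library (median of ratios, called scaled TPM here), because the share of that total taken by mitochondrial transcripts differed between the genotypes. Differences are on log2(scaled TPM + 1), positive where mTG was higher, ± the standard error of a limma fit, and a gene is called at a Benjamini-Hochberg adjusted p under 0.05. Of 12399 genes tested, 3222 (26.0%) were called higher in mTG and 3166 (25.5%) lower, and 669 and 309 of these differed by at least 2-fold. On unscaled TPM 682 (5.50%) were called higher and 9307 (75.1%) lower, with the median gene at -0.62 in place of 0.00. All 3166 falls and 681 of the rises were called in the same direction on both scales, while 1069 rises were called lower on unscaled TPM. All 6 mTG libraries lay above all 5 mKO libraries for 1981 genes (16.0%) and below them for 1819 (14.7%). TPM keeps no depth, so the depth behind each value is unknown. The tissue is bulk, so fewer cells of a type and less RNA per cell cannot be told apart.

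A pair of libraries labelled mKO stood apart from the rest of their group. MKO_3251 lay within the range of the 6 WT libraries for 22 of the 29 genes other than Ppargc1a with the largest rises and falls under the naming rule, against 1 to 10 of the 29 in the other mKO libraries. MKO_3259 lay farthest from its group, with a median distance of 0.338 (log2) over genes against 0.120 to 0.164 in the others, and was set off from all 10 others by the second principal component. Without MKO_3251 the calls were 3181 higher and 3166 lower, and without MKO_3259 3145 and 3154, of which 2889 and 2796 were also called with all libraries. Several results that turn on either are given with and without it, but not every list count is. The correlation of log2 values between libraries was 0.951 to 0.985 within mKO and 0.977 to 0.988 within mTG, and the median over genes of the SD within a group was 0.22 and 0.14.

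Ppargc1a itself (ENSMUSG00000029167, chr5:51454250-51567726, minus strand, GRCm38) was at 4.44, 5.01, 7.51, 8.79 and 10.5 scaled TPM in the 5 libraries labelled mKO. The 6 WT libraries ranged from 4.82 to 15.2 (median 6.99) and the 6 mTG libraries from 96.1 to 112 (median 109). The mTG libraries lay far above both other groups, which overlapped each other. The log2 values were 2.99 ± 0.46 (SD, n = 5) in mKO and 6.75 ± 0.09 (SD, n = 6) in mTG, a difference of 3.77 (exact 2-sided permutation test, p = 0.00216, the smallest that 462 splits allow; adjusted over 10 values, 0.00618). In mKO the gene-level value differed from WT by -0.10 (limma, adjusted p = 0.84). The labels do not say which part of the gene was removed, so this level checks the transgenic label and does not check the knockout label. For that reason the text speaks of libraries labelled mKO.

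The transcripts of the transcription factors that PGC-1α works with differed in both directions. Of 27 genes of the PGC-1 family and its partners, 10 rose and 5 fell (6 and 18 on unscaled TPM). Over all genes 26.0% rose and 25.5% fell, so the share lower was below that of all genes on scaled TPM. The 10 rises include Ppargc1a itself, the gene that the genotype labels concern. The median was -0.01 against 0.00 over all genes. Esrra, the estrogen-related receptor α gene (chr19:6910977-6921813, minus strand), was at 17.7, 20.6, 20.98, 21.5 and 40.4 scaled TPM in mKO, with MKO_3251 at the highest value, and at 103 to 119.6 (median 109.6) in mTG. The groups did not overlap, and the WT libraries, at 33.6 to 47.4, lay between them apart from MKO_3251, which was inside their range (difference 2.20 ± 0.12, limma, adjusted p = 2.2e-16). Its relative Esrrb rose by 2.24 ± 0.10 from 0.362 to 0.749 in mKO to 5.39 to 7.43 in mTG, a low-level gene in every library. The third receptor, Esrrg, differed by -0.06 ± 0.17 and did not pass the test.

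Perm1, a muscle regulator induced by PGC-1α and the estrogen-related receptors, was at 25.2, 26.0, 29.6, 31.5 and 36.0 scaled TPM in mKO and at 90.6 to 98.8 (median 94.6) in mTG, with no overlap (1.65 ± 0.10). Ppara, the receptor that governs fatty acid oxidation genes, rose by 1.51 ± 0.24 and Sirt3, the mitochondrial deacetylase, by 2.00 ± 0.13. Among the coactivators, Ppargc1b differed by -0.04 ± 0.11 without passing the test and Pprc1 fell by 0.54 on the log2 scale. Nrf1 (-0.01 ± 0.10) and Gabpa (0.32 ± 0.14), which encode the 2 nuclear respiratory factors, did not pass the test. The retinoid receptor partners fell: Rxrg differed by -0.79 ± 0.11 and Rxra by -0.39 ± 0.07.

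**Figure D1:**
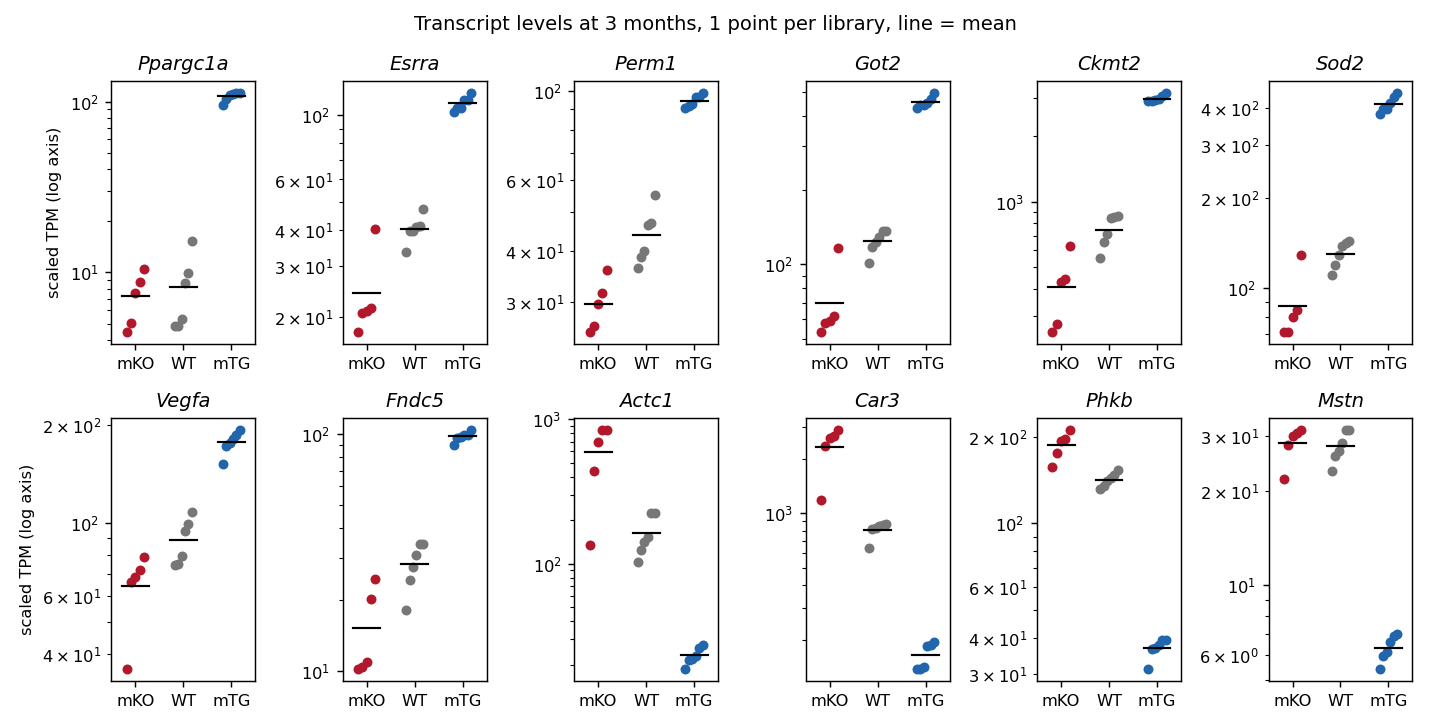
Scaled TPM (log axis) of 12 genes in each 3-month library, with points for the libraries labelled mKO (5), WT (6) and mTG (6) and a bar at each group's mean. All mTG points lie above all mKO points for Ppargc1a, Esrra, Perm1, Got2, Ckmt2, Sod2, Vegfa and Fndc5, and below them for Actc1, Car3, Phkb and Mstn.

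The genes with the largest rises were a mixture of mitochondrial enzymes and genes of other kinds. Genes named as the largest rises or falls had to show no overlap between mTG and mKO, so that separation was set by the rule. Ckmt2, the mitochondrial creatine kinase of striated muscle (chr13:91853387-91876885, minus strand), was at 252, 274, 429, 444 and 626 scaled TPM in mKO and at 2894 to 3164 (median 2943) in mTG. No mTG library came near the mKO range (2.96 ± 0.15, 7.77-fold on the log2(value + 1) scale, limma, adjusted p = 2.2e-17). Got2, the mitochondrial aspartate aminotransferase (chr8:95864134-95888547, minus strand), was at 53.2, 58.2, 59.0, 61.8 and 116 in mKO and at 429 to 493 (median 447) in mTG. MKO_3251 held the value of 116, inside the WT range of 101 to 136, and every mTG library lay above WT (2.75 ± 0.12). Its cytosolic partner Got1 rose by 2.71 ± 0.13, from 58.3 to 122 in mKO to 423 to 508 in mTG.

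Other large rises were Kcng4, a modifying subunit of voltage-gated potassium channels (3.78 ± 0.16), Iqsec2, an exchange factor for small GTPases (3.19 ± 0.14), and Cds1, a CDP-diacylglycerol synthase of phospholipid synthesis (2.87 ± 0.11). Kcng4 was at 1.45, 1.95, 2.10, 2.45 and 6.64 scaled TPM in mKO, at 6.80 to 11.2 in WT and at 45.7 to 51.5 in mTG, a rank order of the 3 genotypes with no overlap. Sco2, a copper chaperone for cytochrome c oxidase, rose by 2.69 ± 0.12, Aspa, which splits N-acetylaspartate, by 2.75 ± 0.13, and Nceh1, a cholesteryl ester hydrolase, by 2.76 ± 0.14. The largest rise of all that met the naming rule was BC049352, at 0.0312 to 1.13 in mKO and 34.6 to 46.8 in mTG (4.93 ± 0.17). BC048679 (3.31 ± 0.35), Adig (3.16 ± 0.26) and Tm6sf1 (2.78 ± 0.13) completed the list together with Fndc5, described with the secreted factors.

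The largest falls included several enzymes of cytosolic fuel handling. Car3, carbonic anhydrase 3, an abundant protein of muscle and fat (chr3:14863512-14872523, plus strand), was at 1188, 2336, 2584, 2653 and 2887 scaled TPM in mKO and at 138 to 193 (median 164) in mTG. The WT libraries lay between, at 645 to 865, and the lowest mKO value again belonged to MKO_3251 (-3.77 ± 0.16, limma, adjusted p = 5.2e-19). Actc1, cardiac α-actin (chr2:114047282-114053548, minus strand), was at 134, 440.4, 702, 848 and 848 in mKO and at 18.7 to 27.6 (median 22.6) in mTG. It fell by 4.37 ± 0.35 on the log2 scale, and its value is uncertain, because its transcript resembles that of the far more abundant skeletal actin.

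Srebf1, a regulator of lipid synthesis, was at 23.6, 27.0, 45.0, 46.0 and 46.2 scaled TPM in mKO and at 2.76 to 5.22 (median 3.73) in mTG, with no overlap (-2.98 ± 0.20). Gamt, which makes creatine from guanidinoacetate, was at 6.47, 12.7, 17.3, 17.5 and 25.8 in mKO and at 0.942 to 1.18 in mTG (-2.90 ± 0.20). Smox, spermine oxidase, differed by -3.18 ± 0.26, and Prkag3, the γ3 subunit of AMP-activated kinase found in fast glycolytic muscle, by -2.66 ± 0.15. Mss51, a gene of fast muscle, went from 10.2 to 26.6 in mKO to 0.825 to 1.51 in mTG (-2.86 ± 0.33). Further large falls were Odf3l2 (-3.01), Il12a (-2.59), Cbr2 (-2.51), Pla2g5 (-2.41), Igfn1 (-2.40) and Panx1 (-2.40). Sec61g, a subunit of the protein channel of the endoplasmic reticulum, was unlike these: it was at 57.0 to 149 in mKO, but its 6 mTG libraries were spread from 0.270 to 47.9, and its difference of -3.79 ± 0.83 went to -4.43 without the library MCK_3876.

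The respiratory chain was higher in mTG almost throughout. Of the nuclear genes tested, 36 of 37 rose in complex I, all 4 in complex II, all 10 in complex III, 14 of 15 in complex IV and all 17 in complex V, and none fell. Counted with complex III is Cycs, cytochrome c, and with complex V the inhibitor Atpif1, neither a subunit of its complex. The medians were 1.1, 1.51, 1.39, 1.40 and 1.22, against 0.00 over all genes. On unscaled TPM the rises were 18, 3, 8, 10 and 13, with 1 fall each in complexes I, III and IV. That counted with complex III was Cycs. Among all genes 26.0% rose and 25.5% fell on scaled TPM, and 5.50% and 75.1% on unscaled TPM. The 2 subunits that missed the threshold were Ndufa2 (0.21 ± 0.20), where MKO_3259 stood at 607 scaled TPM against 211 to 247 in the other 4, and Cox6b1 (0.55 ± 0.31); without MKO_3259 all 37 and all 15 were called.

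Cox7a1, the muscle form of a complex IV subunit, rose most among them apart from Atp5g2, whose spread was wide (2.16 ± 0.61). It was at 180.4, 195, 231, 470.2 and 504 scaled TPM in mKO and at 1209 to 1369.9 (median 1264) in mTG (2.15 ± 0.20). The mKO libraries fell into a lower set of 3 and an upper pair, MKO_3251 and MKO_3259, within reach of WT, at 455 to 589.8, and mTG lay above all of them. Sdhb, the iron-sulfur subunit of succinate dehydrogenase, was at 163, 172, 186, 252 and 266 in mKO and at 753 to 798 in mTG, a range narrower than that within mKO (1.94 ± 0.11). Atp5g3, a c-ring subunit of ATP synthase, was at 424, 466, 493, 699 and 709.6 in mKO and at 2193 to 2408 (median 2249) in mTG (2.05 ± 0.11). Cycs, cytochrome c, was at 76.2 to 150.3 in mKO and 115 to 224 in mTG, so that the groups overlapped, and it rose by 0.48 ± 0.19 on scaled TPM but differed by -0.37 on unscaled TPM. Its call was lost without any 1 of MKO_3247, MKO_3248, MKO_3265, MCK_3874 and MCK_3876 (0.35 to 0.47).

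Promoters of these subunits were read for 3 motifs of factors that PGC-1α coactivates, since their transcripts moved together. RefSeq promoters (GRCm38.p6, 250 bases before to 50 after the start) were held for 67 of these 83 nuclear genes, Cycs and Atpif1 among them. The estrogen-related receptor motif TNAAGGTCA, on either strand, occurred in 3 of the 67 (4.48%), against 1.43% of all promoters of the RefSeq table, 0.864% of those of tested genes, 0.859% of those called higher and 0.849% of those called lower. Of the 3 matches, that in Sdhd begins 36 bases after the start. None occurred in 24 promoters of the TCA cycle and pyruvate oxidation, 18 of fatty acid oxidation and 71 of the mitochondrial ribosome. The core of the nuclear respiratory factor 1 motif, GCGCANGCG on either strand, occurred in 22 of the 67 (32.8%), against 7.03% of all promoters, 16.1% of those of tested genes, 16.2% of those called higher and 17.4% of those called lower. In the same 3 other lists it occurred in 12.5%, 16.7% and 22.5% of promoters. The ETS motif CCGGAAGT, which the GA-binding factor Gabpa reads, occurred in 7.46% of the subunits, 4.31% of all promoters, 9.54% of those of tested genes and 7.65% of those called higher. In the 3 other lists its shares were 4.17%, 11.1% and 16.9%, in the same order. For each of the 3 motifs the share among genes called higher was near or below that among tested genes. The windows below show, in capitals, the estrogen-related receptor motif upstream of Atp5g3 and the nuclear respiratory factor 1 motif upstream of 3 further subunits, each printed on the gene's own strand, 5′ to 3′; a match is a string of letters and no measured binding. The windows are chr2:73911340-73911408 (minus strand) for Atp5g3, chr11:115420022-115420090 (minus) for Atp5h, chr17:56717672-56717740 (plus) for Ndufa11 and chr5:115349082-115349150 (minus) for Cox6a1.
Atp5g3: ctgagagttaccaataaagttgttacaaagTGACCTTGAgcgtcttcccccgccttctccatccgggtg
Atp5h: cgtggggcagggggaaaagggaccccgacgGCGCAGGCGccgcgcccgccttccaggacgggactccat
Ndufa11: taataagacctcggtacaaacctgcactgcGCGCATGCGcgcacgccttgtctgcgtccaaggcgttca
Cox6a1: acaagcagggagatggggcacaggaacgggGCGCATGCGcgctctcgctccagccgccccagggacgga

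The matches begin 52, 141, 60 and 162 bases before the RefSeq start. The printed Atp5g3 match, TGACCTTGA, is the reverse complement of the motif as searched. The transcripts of the other 3 rose as well: Atp5h by 1.64 ± 0.13, Ndufa11 by 1.57 ± 0.14 and Cox6a1 by 1.40 ± 0.13.

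All 13 protein genes of mitochondrial DNA rose on scaled TPM, with a median of 1.75, and 11 of them also rose on unscaled TPM with none falling. mt-Atp6, a subunit of ATP synthase, was at 7507, 8166, 8602, 10100.0 and 10758 scaled TPM in mKO and at 31958 to 50137 (median 40633) in mTG (2.16 ± 0.16). mt-Nd6, the only one of the 13 encoded on the light strand, rose least, from 135 to 239 in mKO to 261 to 438 in mTG (0.88 ± 0.13, and 0.03 on unscaled TPM). Together the 13 genes took 15.2, 21.2, 22.4, 25.9 and 27.6% of TPM in the mKO libraries, 24.4 to 28.4% in WT and 39.6 to 45.7% (median 43.5%) in mTG. Every mTG library was above every other library, a difference of 20.3 percentage points (exact 2-sided permutation test, adjusted p = 0.00618).

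Transcripts of mitochondrial DNA thus rose somewhat more than those of the nuclear subunits. The log2 ratio of their summed TPM was 1.72, 2.75, 2.82, 2.86 and 3.00 in mKO and 2.95 to 3.22 (median 3.13) in mTG, with an overlap. The difference was 0.48 (exact 2-sided permutation test, adjusted p = 0.00618) and 0.25 without MKO_3259, which held the lowest value. Nuclear rRNA genes, which take a share of the same total, were at 0.195 to 0.307% of TPM in mKO and 0.0911 to 0.191% in mTG. Their log2 share differed by -0.98 (exact 2-sided permutation test, adjusted p = 0.00618) and by -0.05 (adjusted p = 0.768) when taken of nuclear protein-coding TPM.

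The factors that assemble the chain rose less evenly: 33 of 45 rose and 2 fell, with a median of 0.60, while on unscaled TPM 12 rose and 21 fell. The shares of all genes were 26.0% higher and 25.5% lower (5.50% and 75.1% on unscaled TPM). Uqcc1 (1.87 ± 0.13) and Lyrm7 (1.87 ± 0.20), for complex III, and Cox10 (1.69 ± 0.08), for heme of complex IV, were among the larger rises after Sco2. Cox16 (-0.93 ± 0.13) and Surf1 (-0.22 ± 0.09), 2 complex IV factors, fell, and Surf1 was not called without MKO_3259 (-0.10) or without any 1 of MKO_3247, MCK_3875, MCK_3876 and MCK_3887 (-0.20 each). Of 13 coenzyme Q synthesis genes 11 rose and none fell, led by Pdss1, the prenyl chain synthase (2.24 ± 0.11). Of 27 genes for iron-sulfur clusters and heme 22 rose and none fell, led by Alas1, the first enzyme of heme synthesis (1.91 ± 0.12), though on unscaled TPM 7 of these rose and 12 fell.

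**Figure D2:**
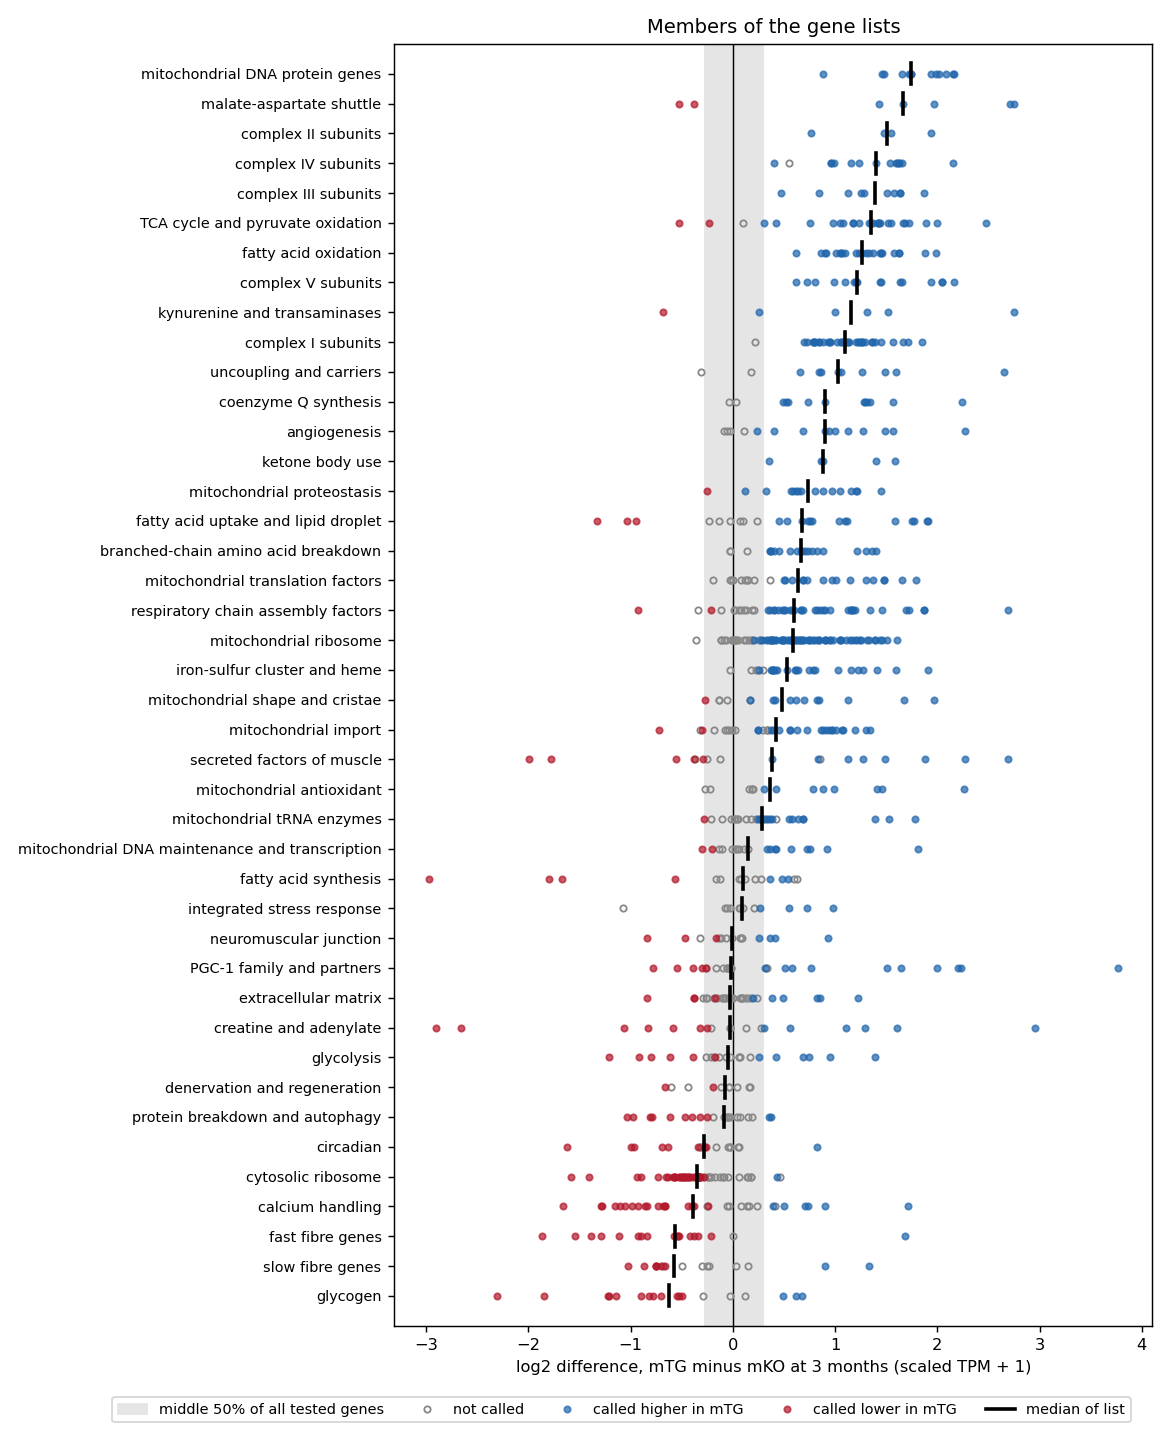
Log2 difference (mTG minus mKO at 3 months, scaled TPM) of each member of the pathway lists, 1 row per list in the order of its median (black bar), with filled points for called genes, open points for those not called and a grey band for the middle 50% of all tested genes. Mitochondrial DNA genes, the malate-aspartate shuttle and the respiratory chain stand near the top, with medians between 1.1 and 1.75, and glycogen genes at the bottom, with a median of -0.63.

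Pyruvate oxidation and the TCA cycle rose with the chain: 24 of 27 genes rose and 2 fell, with a median of 1.36 (17 and 4 on unscaled TPM). Among all genes 26.0% rose and 25.5% fell (5.50% and 75.1% on unscaled TPM). Dlat, the acetyltransferase of pyruvate dehydrogenase, was at 29.01, 39.1, 40.3, 48.0 and 64.6 scaled TPM in mKO and 219 to 263 (median 242) in mTG (2.48 ± 0.12). Cs, citrate synthase, was at 99.2, 135, 138, 139 and 210.1 in mKO, where MKO_3251 held the highest value, and at 451 to 485 in mTG (1.72 ± 0.11). Both were separated from every mKO library by more than the whole range within mTG. Pcx, pyruvate carboxylase, which refills the cycle, fell by 0.53 on the log2 scale. The inhibitory kinases split: Pdk1 fell by 0.23, a call lost without MKO_3265 (-0.18), while Pdk2 (1.04 ± 0.09) and Pdk4 (1.36 ± 0.45) rose. The shuttles that carry reducing equivalents into mitochondria split: the malate-aspartate genes Got1, Got2, Mdh1 (1.97 ± 0.10), Slc25a11 (1.66 ± 0.08) and Slc25a12 (1.43 ± 0.14) rose, and the glycerol phosphate enzymes Gpd1 (-0.38 ± 0.10) and Gpd2 (-0.53 ± 0.10) fell.

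All 23 genes of mitochondrial fatty acid oxidation rose, with a median of 1.26, and 17 rose and none fell on unscaled TPM. Acadl, long-chain acyl-CoA dehydrogenase, was at 75.5, 91.5, 93.5, 95.2 and 128 scaled TPM in mKO and 336 to 427 (median 382) in mTG (1.99 ± 0.11). Cpt1b, the muscle gene for carnitine transfer of fatty acids, rose by 1.31 ± 0.10 and Cpt2 by 1.63 ± 0.11. Genes of uptake and storage were mixed, with 14 of 23 higher and 3 lower (6 and 9 on unscaled TPM). The shares of all genes were 26.0% higher and 25.5% lower (5.50% and 75.1% on unscaled TPM). The triglyceride lipase Pnpla2 (1.90 ± 0.11), the droplet proteins Plin5 (1.90 ± 0.19) and Cidea (1.75 ± 0.13) and the lipase inhibitor G0s2 (1.77 ± 0.27) rose, while the droplet proteins Plin2 (-1.03 ± 0.10) and Plin3 (-1.33 ± 0.18) and the lipoprotein receptor Vldlr (-0.94 ± 0.07) fell.

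For fatty acid synthesis 3 of 16 genes rose and 4 fell, so the share higher was below the 26.0% of all genes, and on unscaled TPM none rose and 12 fell. The falls were Srebf1, the desaturase Scd2 (-1.80 ± 0.18), the malic enzyme Me1 (-1.67 ± 0.07) and Thrsp (-0.56 ± 0.22), the last not called without MKO_3259 (-0.30), MKO_3265 (-0.53), MCK_3885 (-0.52) or MCK_3890 (-0.49). Me1 was at 81.6, 82.4, 84.0, 86.0 and 96.0 scaled TPM in mKO and 22.9 to 28.1 in mTG, 2 tight groups with a wide gap. The synthase Fasn (0.63 ± 0.33) did not pass the test. Among 5 genes of ketone use all rose, led by Oxct1 (1.58 ± 0.14), and 18 of 21 genes of branched-chain amino acid breakdown rose on scaled TPM with none falling, although on unscaled TPM 4 rose and 8 fell. Among the kynurenine aminotransferases, which turn kynurenine into kynurenic acid, Kyat3 rose by 1.52 ± 0.11 and Kyat1 by 1.0 ± 0.09, besides Got2.

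Transcripts for mitochondrial protein synthesis, the topic of the series title, had smaller differences than those of the respiratory chain. Of 83 mitochondrial ribosomal protein genes 66 rose and none fell on scaled TPM, against 26.0% and 25.5% of all genes. Their median was 0.59. On unscaled TPM 16 rose and 43 fell (median -0.25), so relative to the whole TPM total, mitochondrial transcripts included, most of them took a smaller share. Mrpl12 was at 43.9, 46.2, 51.9, 64.5 and 85.1 scaled TPM in mKO and at 159 to 193 (median 173) in mTG (1.60 ± 0.13). It was the largest rise of the 83, and it was 1 of 36 for which every mTG library lay above every mKO library. Without MKO_3259 73 rose, and without MKO_3251 64 rose and 1 fell.

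Of 26 translation and RNA factors 16 rose and none fell, with a median of 0.63 (8 higher and 12 lower on unscaled TPM). Gfm1, the elongation factor that moves the mitochondrial ribosome, was at 18.2, 23.5, 24.7, 33.0 and 42.8 scaled TPM in mKO and at 90.5 to 102 in mTG, with no overlap (1.79 ± 0.15). Tufm, which brings tRNAs to the ribosome, rose by 1.48 ± 0.11, and Lrpprc, which stabilises mitochondrial mRNAs, by 1.14 ± 0.08. Of 30 enzymes that charge or modify mitochondrial tRNAs 15 rose and 1 fell, against 26.0% and 25.5% of all genes. Their median was 0.28, and on unscaled TPM 3 rose and 20 fell. Without MKO_3259 18 of these enzymes rose and 1 fell, and without MKO_3251 12 rose and 2 fell. Within them Qrsl1, a subunit of the enzyme that makes glutaminyl-tRNA, was at 6.37 to 7.99 in mKO and 24.7 to 29.7 in mTG (1.78 ± 0.09), and Yars2 rose by 1.53 ± 0.14, while Iars2 differed by 0.04 ± 0.05 and Elac2, which trims tRNA ends, fell by 0.28 on the log2 scale.

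For copying and transcribing mitochondrial DNA 9 of 19 genes rose and 2 fell, against 26.0% and 25.5% of all genes. Their median was 0.15, and on unscaled TPM 1 rose and 13 fell. Tfam, which packages mitochondrial DNA and starts its transcription, was at 18.2, 21.2, 22.5, 23.4 and 23.5 scaled TPM in mKO, 21.5 to 24.9 in WT and 39.1 to 47.4 in mTG (0.92 ± 0.09). Mterf2 rose most (1.81 ± 0.10), and the polymerase gene Polrmt (-0.14 ± 0.20) did not pass the test. Among import genes 21 of 34 rose and 2 fell (5 and 20 on unscaled TPM), and among proteases and chaperones 15 of 16 rose and 1 fell (5 and 8 on unscaled TPM), with Phb, prohibitin, the largest rise there (1.45 ± 0.10). For mitochondrial shape 11 of 16 rose and 1 fell (3 and 10 on unscaled TPM), led by the outer-membrane fusion gene Mfn1 (1.97 ± 0.14), and Sod2, the superoxide dismutase of the matrix, was at 71.2, 71.5, 80.1, 84.5 and 129 in mKO and 381 to 449 (median 407) in mTG (2.26 ± 0.10).

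**Figure D3:**
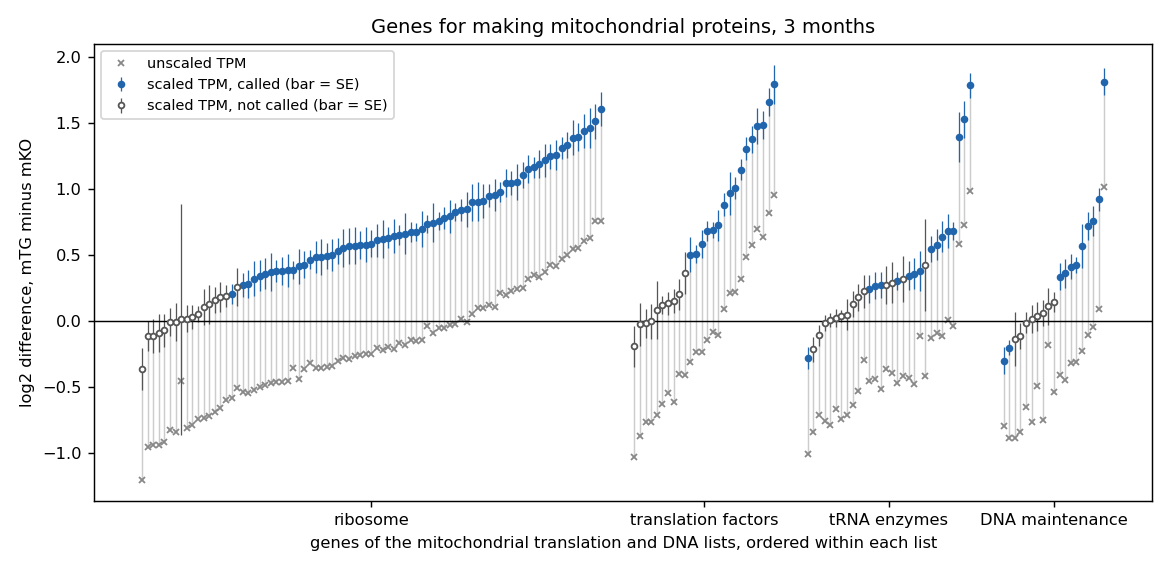
Log2 difference (mTG minus mKO at 3 months) of every tested gene of the mitochondrial ribosome, translation factors, tRNA enzymes and DNA maintenance, ordered within each list; circles with SE bars are scaled TPM (filled where called) and crosses unscaled TPM. Most circles lie above 0, with medians of 0.59, 0.63, 0.28 and 0.15, and most crosses below it.

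Glycogen genes went the other way from the oxidative pathways. Of 18 tested, 12 fell and 3 rose, with a median of -0.63 (16 and none on unscaled TPM). The shares of all genes were 25.5% lower and 26.0% higher (75.1% and 5.50% on unscaled TPM). Phkb, a regulatory subunit of phosphorylase kinase (chr8:85840959-86061376, plus strand), was at 157, 175, 193, 196 and 211 scaled TPM in mKO, 131 to 153 in WT and 31.2 to 39.4 (median 37.4) in mTG. The 3 genotypes did not overlap (-2.30 ± 0.09, limma, adjusted p = 9.6e-20). Pygm, muscle glycogen phosphorylase, was at 2746, 2755, 2762, 3139 and 4806 in mKO, the last in MKO_3259, and at 1223 to 1488 in mTG (-1.21 ± 0.13). Phka1 (-1.15 ± 0.09), the phosphatase inhibitor Ppp1r1a (-1.84 ± 0.23) and the glycogen-binding Stbd1 (-1.22 ± 0.14) fell with them. The rises on scaled TPM were the synthase Gys1 (0.62 ± 0.06), the branching enzyme Gbe1 (0.68 ± 0.09) and Pgm2 (0.49 ± 0.15), of which Gys1 and Gbe1 differed by -0.23 and -0.16 on unscaled TPM.

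In glycolysis 6 of 22 genes rose and 6 fell, shares near those of all genes (1 and 18 on unscaled TPM). Ldha, the lactate dehydrogenase subunit of glycolytic muscle, fell by 1.21 on the log2 scale and the lactate exporter Slc16a3 by 0.92, while Ldhb, the subunit of oxidative muscle, rose by 0.95 ± 0.18. Ldhb made up 7.49, 8.80, 10.2, 11.2 and 13.1% of the summed Ldha and Ldhb TPM in mKO, 8.08 to 18.7% in WT and 27.7 to 43.3% (median 32.9%) in mTG. This share does not depend on the scaling, and every mTG library exceeded every other library (difference 23.3 percentage points, exact 2-sided permutation test, adjusted p = 0.00618).

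Most fast-fibre genes were lower in mTG. Of 18 fast-fibre genes 16 fell and 1 rose (median -0.56, with 17 and 1 on unscaled TPM and 14 and 1 without MKO_3259), and of 16 slow-fibre genes 7 fell and 2 rose (median -0.58, with 14 and 1 on unscaled TPM), against 25.5% lower and 26.0% higher over all genes. Whether the fast and slow lists differed was not tested. Actn3, the fast α-actinin, was at 2515, 2583, 2810.4, 2878 and 6726 scaled TPM in mKO and 935 to 1405 (median 1099.5) in mTG, and Pvalb, the calcium buffer parvalbumin, was at 5551 to 13606 in mKO and 2309 to 3253 in mTG. The high values of both were in MKO_3259, and the mTG libraries lay below all 5 (-1.55 ± 0.22 and -1.29 ± 0.20). Myl3, the slow myosin light chain, fell by 1.02 on the log2 scale with an overlap of the groups. The rises among slow genes were Mb, myoglobin, which stores oxygen (1.34 ± 0.17), and Casq2, the calcium-binding protein of slow sarcoplasmic reticulum (0.90 ± 0.13).

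Within the 4 adult myosin heavy chains the shift was between the 2 fastest. Myh1, the gene of type IIx fibres, made up 3.31, 4.004, 4.43, 4.53 and 5.45% of their summed TPM in mKO, 3.94 to 7.50% in WT and 10.2 to 20.9% (median 15.7%) in mTG, a difference of 11.3 percentage points (exact 2-sided permutation test, adjusted p = 0.00618). Myh4, of type IIb fibres, went from 89.7 to 92.3% in mKO to 71.2 to 86.65% in mTG, and the difference was -11.3 points at the same adjusted p. Neither share overlapped between mTG and mKO. Type IIa Myh2 (3.30% and 3.76%, adjusted p = 0.42) and slow Myh7 (1.77% and 1.27%, adjusted p = 0.29) did not pass the exact permutation test (2-sided); without the library MCK_3875 the Myh7 difference was -0.75 points (adjusted p = 0.0198). The share of the slow calcium pump Atp2a2 within Atp2a1 and Atp2a2 was 0.926% and 0.754%, with an overlap (adjusted p = 0.42, same exact test).

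**Figure D4:**
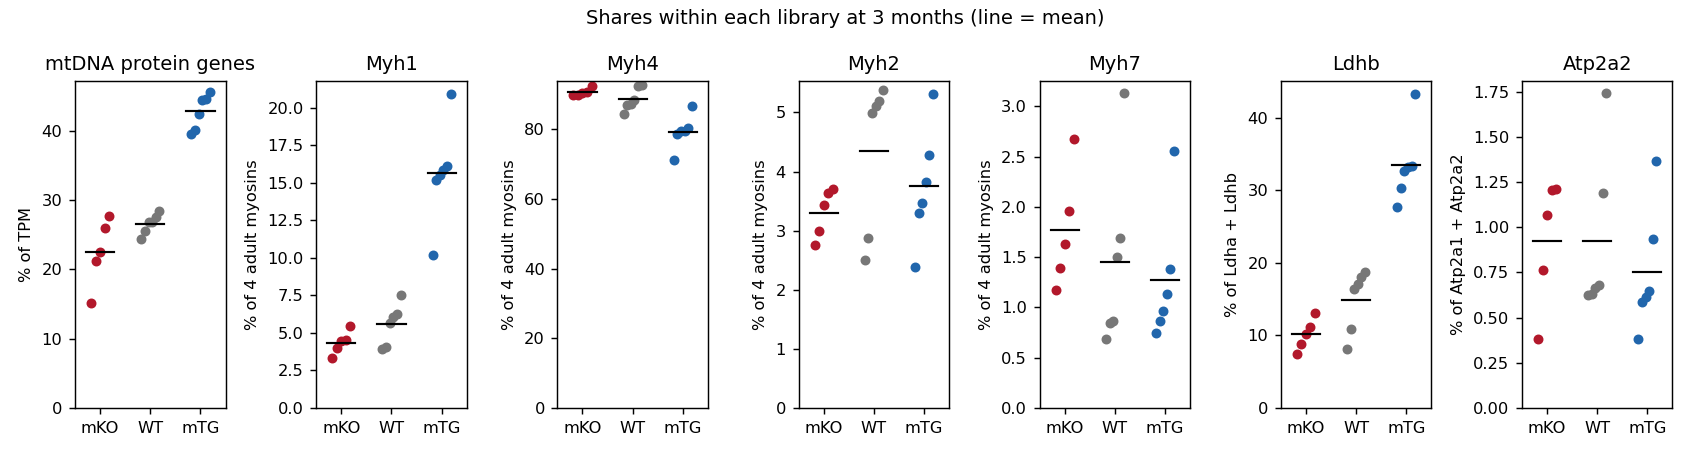
Shares of TPM in each 3-month library in percent: the 13 mitochondrial DNA protein genes of all TPM, each of Myh1, Myh4, Myh2 and Myh7 of the 4 adult myosins, Ldhb of Ldha and Ldhb, and Atp2a2 of Atp2a1 and Atp2a2, with points for the libraries (5 mKO, 6 WT, 6 mTG) and a bar at each mean. The mitochondrial share, Myh1 and Ldhb are higher in all 6 mTG libraries than in any mKO library and Myh4 is lower.

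Of 32 calcium-handling genes 18 fell and 6 rose, with a median of -0.39, where 25.5% of all genes fell and 26.0% rose (27 and 1 on unscaled TPM). The falls included Mrln, myoregulin, an inhibitor of the calcium pump (-1.66 ± 0.17), Jph2, junctophilin, which holds the calcium release sites together (-1.28 ± 0.10), and the calmodulin genes Calm2 (-0.86 ± 0.09) and Calm3 (-0.84 ± 0.09). Jph2 was at 105, 108, 110.2, 111 and 149 scaled TPM in mKO and 45.2 to 49.8 in mTG, tight groups far apart. Rcan2, a calcineurin regulator, rose most (1.71 ± 0.13).

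Of 17 muscle genes for secreted proteins 8 were higher and 5 lower (5 and 9 on unscaled TPM). Over all genes 26.0% rose and 25.5% fell. Fndc5, whose product is cut to irisin (chr4:129136999-129144593, plus strand), was at 10.2, 10.4, 10.9, 20.2 and 24.3 scaled TPM in mKO, 18.1 to 34.5 in WT and 89.4 to 104 (median 97.9) in mTG. The mTG libraries were tightly grouped above all others (2.69 ± 0.16). Mstn, myostatin, which limits muscle growth (chr1:53061640-53068079, plus strand), was at 21.8, 28.02, 29.9, 30.6 and 31.3 in mKO, 23.1 to 31.2 in WT and 5.42 to 7.01 (median 6.38) in mTG. Here mKO and WT overlapped fully and mTG alone was low (-1.99 ± 0.10, limma, adjusted p = 1.5e-17). Il15 rose by 1.88 ± 0.13, and Ostn, the bone- and muscle-derived musclin, fell from 15.5 to 27.4 in mKO to 4.20 to 5.73 in mTG (-1.78 ± 0.15).

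Angiogenic genes rose: 11 of 15, with none lower and a median of 0.90 (4 and 5 on unscaled TPM). Over all genes 26.0% rose and 25.5% fell. Vegfa, the main signal for capillary growth (chr17:46016993-46032369, minus strand), was at 35.9, 66.1, 68.5, 72.0 and 78.7 scaled TPM in mKO and 151 to 193 (median 178) in mTG (1.49 ± 0.17), and Vegfb rose by 2.27 ± 0.12. Among receptors Kdr rose by 1.0 ± 0.12 and Flt1 by 0.94 ± 0.13, and Epas1, an oxygen-sensing factor of endothelium, by 1.56 ± 0.20. Endothelial markers moved with them: 10 of 12 rose and none fell (1 and 2 on unscaled TPM), their summed level was 119 to 161 scaled TPM in mKO, 144 to 179 in WT and 221 to 257.5 in mTG, and Cdh5, the cadherin of endothelial junctions, rose by 1.14 ± 0.12. The receptors are themselves endothelial markers, and the part of endothelial RNA in these results was not tested. Col4a1, a basement-membrane collagen, rose by 1.23 ± 0.14, while over 32 matrix genes 6 rose and 4 fell (2 and 28 on unscaled TPM). On scaled TPM both matrix shares were below those of all genes.

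Markers of other cells moved less. Among all genes 26.0% rose and 25.5% fell (5.50% and 75.1% on unscaled TPM). With all libraries, the shares of macrophage and erythroid markers that rose on scaled TPM were below that of all genes. Of 10 markers of fibro-adipogenic progenitors 6 fell and 1 rose (9 and none on unscaled TPM), with summed levels of 603 to 750 scaled TPM in mKO and 481 to 551 in mTG. Of 11 macrophage markers tested 2 rose and none fell (none and 9 on unscaled TPM), with sums of 51.6 to 89.7 and 68.7 to 80.7, and 5 rose without MKO_3259. Car3 was the only 1 of 7 adipocyte markers tested that was called, while Adipoq, a defining gene of fat cells, differed by 0.10 ± 0.30. Of 5 erythroid markers tested 1 rose and none fell (none and 2 on unscaled TPM), and 4 rose without MKO_3259. Their sums were 332 to 1020 scaled TPM in mKO, 341 to 513 in WT and 529 to 758.5 in mTG. The neutrophil genes Ly6g and Ngp were at 0 in all 11 libraries. Muscle fibre markers were abundant in every library, at sums of 93280 to 160400 scaled TPM in mKO and 71320 to 88450 in mTG. Of these 10 markers 8 fell and 1 rose (10 and none on unscaled TPM).

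Genes of protein breakdown and autophagy fell more often than they rose, 9 against 2 of 21, where 25.5% of all genes fell and 26.0% rose (21 and none on unscaled TPM). The ubiquitin ligases of atrophy, Trim63 (-0.98 ± 0.12) and Fbxo32 (-0.79 ± 0.11), and the autophagy receptor Sqstm1 (-1.04 ± 0.08) were lower in all 6 mTG libraries than in any mKO library. Of 18 circadian genes 8 fell and 1 rose (16 and none on unscaled TPM). The falls included Dbp (-1.63 ± 0.27, with an overlap of the groups) and Cry2 (-1.0 ± 0.09). The labels give no hour of dissection. Of 18 creatine and adenylate genes 6 rose and 7 fell (4 and 14 on unscaled TPM): Ckmt2 and the mitochondrial adenylate kinases Ak3 (1.60 ± 0.08) and Ak4 (1.30 ± 0.11) rose, and Ckm (-0.33 ± 0.13), the cytosolic creatine kinase, and Ampd1 (-1.06 ± 0.12), AMP deaminase, fell. Ckm was not called without MKO_3259 (-0.17) or without any 1 of MCK_3874, MCK_3875 and MCK_3890 (-0.31 to -0.32). Of 52 cytosolic ribosomal protein genes 32 fell and 1 rose (median -0.35, with 51 and none on unscaled TPM), a count that rested on MKO_3259: without it 14 fell and 4 rose, and at 24 months 4 fell and 11 rose.

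Against WT, the transgenic side accounted for most calls: 5428 genes (43.8%) were called between mTG and WT and 628 (5.06%) between mKO and WT. The comparisons share libraries with the direct one, so their values stand side by side. Nuclear complex I subunits had a median of 0.97 in mTG minus WT and -0.15 in mKO minus WT, fatty acid oxidation 1.01 and -0.26, and the mitochondrial ribosome 0.59 and -0.01. Got2 was at 1.87 and -0.88, Car3 at -2.30 and 1.47, and Kcng4 at 2.36 and -1.43, so that these genes were called on both sides of WT. Mstn (-1.97 and 0.03), Prkag3 (-2.50 and 0.17) and Il15 (1.78 and -0.10) were called only in mTG minus WT; the difference of the 2 sides was not tested. Without MKO_3251 the calls between mKO and WT went from 628 to 1150, of which 620 were shared, and without each other mKO library they were 373 to 599.

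At 24 months the comparison of the same genotypes, in other animals, called 6830 genes (55.1%), 3392 higher (27.4%) and 3438 lower (27.7%). With the log2 rRNA share as a covariate these counts were 2173 and 1886, and on unscaled TPM 695 and 9559. The 2460 genes higher at both ages made up 76.35% of the young rises and 72.5% of the old ones, and the 2258 lower at both ages 71.3% and 65.7%, while 20 genes were higher at 3 and lower at 24 months and 14 the reverse. Ppargc1a was at 64.0 to 106 scaled TPM in old mTG and 6.28 to 10.6 in old mKO. Nuclear complex I subunits had a median of 1.5 at 24 months, fatty acid oxidation 1.18 and the mitochondrial ribosome 0.79, and glycogen genes -0.50. Esrra (2.18 ± 0.11), Got2 (2.67 ± 0.11), Car3 (-3.12 ± 0.15), Phkb (-1.86 ± 0.09) and Mstn (-1.63 ± 0.09) differed in the old animals in the same direction as in the young ones.

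**Figure D5:**
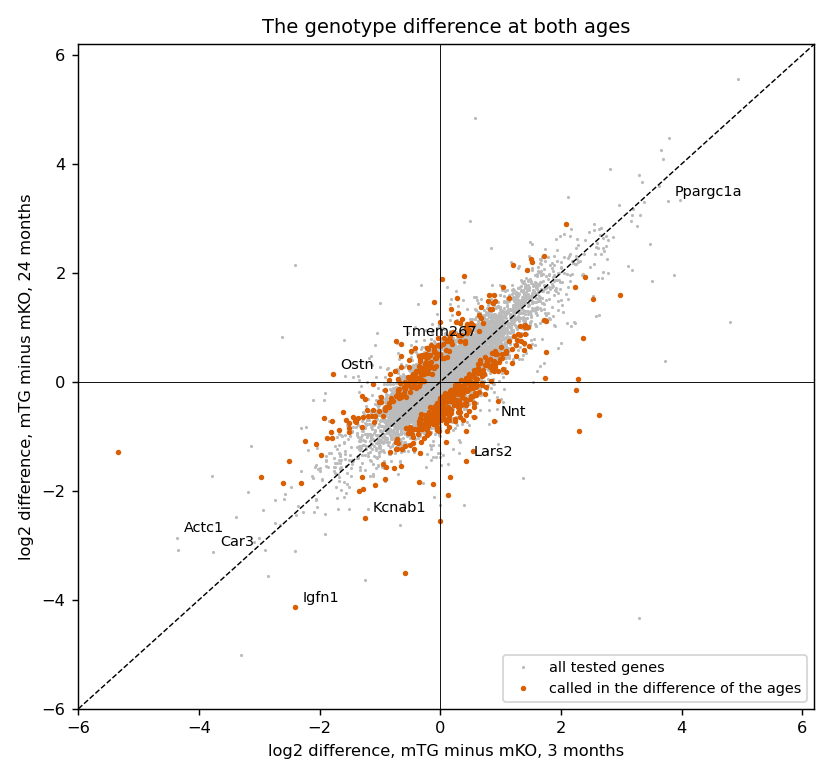
Log2 difference (mTG minus mKO, scaled TPM) at 3 months on the horizontal axis against that at 24 months on the vertical axis, 1 point per tested gene, with genes called in the difference of the ages marked. The dashed line marks equal differences, and a few genes are named; Ostn lies off it at -1.78 and 0.14 and Igfn1 at -2.40 and -4.13.

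The test of the difference between the ages called 526 genes (4.24%), 319 higher (2.57%) and 207 lower (1.67%) in the young comparison. These counts were unstable: they went to 131 and 80 without MKO_3259, ranged from 129 to 554 and from 80 to 463 over libraries left out in turn, and were 58 and 47 with the log2 rRNA share as a covariate. Nuclear rRNA genes took 0.195 to 0.307% of TPM in young mKO, 1.85 to 10.4% in old mKO and 0.384 to 1.33% in old mTG; their part in the difference was not tested beyond that covariate. Ostn stood out, at 28.8 to 41.9 scaled TPM in old mKO and 29.9 to 47.3 in old mTG, so that its young fall of 1.78 on the log2 scale had no counterpart at 24 months (0.14 ± 0.14). Kcnab1, a potassium channel subunit, fell at both ages and by more in the old muscle (-1.24 ± 0.09 and -2.49 ± 0.09), as did Igfn1 (-2.40 ± 0.27 and -4.13 ± 0.26). S100a9, a neutrophil gene, differed by 0.03 ± 0.31 at 3 months and rose by 1.88 ± 0.30 at 24 months, and the globin gene Hba-a2 by 0.27 ± 0.26 and 1.53 ± 0.25. Lrtm1 differed by -0.36 and -1.84, Ces1d, a carboxylesterase, by -0.65 and 0.70, and Tmem267 by -0.74 and 0.74. Lars2, the mitochondrial leucyl-tRNA synthetase (0.43 and -1.46), is uncertain, since its transcript shares a stretch with ribosomal RNA, and so is Nnt (0.88 and -0.72), for which 2 gene models overlap. The 3-month call of Nnt was lost without any 1 of MKO_3259, MKO_3265, MCK_3874 and MCK_3885 (0.66 to 0.84). The age difference of Nnt was called with all libraries and lost with any 1 of 14 libraries of the 23 left out (1.38 to 1.66), and that of Hba-a2 with any 1 of 16 (-1.31 to -0.90).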

How the data were processed

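Total RNA of gastrocnemius was sequenced in 35 libraries of 6 groups, of which the 6 mTG and 5 mKO libraries of 3 months were compared. The authors deposited 1 table of TPM, transcript abundance scaled to the same total in every column, per gene, and cutadapt 1.16, Salmon 1.1.0, edgeR and the GRCm38 build are named in the submitters' processing notes without their roles. Each of the 54416 rows is an Ensembl gene, 54163 of them annotated in GENCODE M21, which gave symbols and coordinates, and 253 not. Columns end in a number, which in young WT is a running number and in the other groups is no replicate number of the labels. Whether it names the animal is not stated. Their group was read from the prefix: MKO and W or WT spell the genotype, MCK was taken as mTG because it alone was left and held the right number of columns, and SO was taken as 24 months on the same ground. This reading is an inference from names and counts of columns. The design text calls the replicates biological without naming the animals, so p-values measure the spread between these libraries.

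Each column was divided by its median of ratios to the geometric mean over genes, and the log2 of scaled TPM plus a pseudocount of 1 was fitted with limma 3.58.1 (R 4.3.3) as 6 group means estimated together from the 35 libraries, with a mean-variance trend. A gene was tested where 5 or more columns reached 1 TPM, with Benjamini-Hochberg adjustment over all of them and a threshold of 0.05. No count test was possible, since TPM are not counts. Shares and ratios within a library were compared by exact permutation over the 11 libraries, adjusted over 10 values (Python 3.11.15, scipy 1.17.1; figures with matplotlib 3.10.9). Tested on simulated data of 12399 genes for the 3-month comparison, the fit found 42 of 50 genes changed 1.5-fold, all 50 changed 2-fold and all 50 changed 4-fold, with 8 unchanged genes called. Only these genes were changed, in random directions and away from low levels, and the noise had the same spread in every group. The real comparison called 51.5% of genes, with a shift of the mitochondrial share and unequal spread. The simulation therefore cannot give the error rate or the effect of the scaling in the real data.

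The libraries and gene lists were chosen with earlier results of these data known, so a list is described by its counts beside those over all genes, and no set test was made. Named genes were Ppargc1a, the 15 largest rises and 15 largest falls among called nuclear protein-coding genes whose groups did not overlap and where either reached a mean of 5 scaled TPM, members of the lists, and the 5 largest per direction in the difference of the ages. Promoters are RefSeq windows of GRCm38.p6. Alternatives changed the scaling, pseudocount, filter, set of genes, libraries in the fit, weights, covariate, trend and threshold, and left out each library. The list counts without MKO_3259 or MKO_3251, and the counts of mKO against WT without each mKO library, were chosen after seeing the data. Some genes that met the naming rule are not reported here. WT libraries of 24 months entered the fit and are not described.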

Additional observations from a re-analysis of the deposited data

Results flagged for a closer look

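Values were looked at again where 1 library stood apart from its group, measured as its gap to the nearest other library divided by the whole range of the group (above the limit of Dixon's test for 5 libraries in mKO and 6 in mTG at 3 months). Of 318 groups of values tested, 47 had such a library, where chance gives about 1 in 20; MKO_3259 was the library in 20 and MKO_3251 in 12.

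MKO_3251 was the highest mKO library for genes that were higher in mTG: Got1 (gap of 0.914 of the range), Got2 (0.864), Esrra (0.835), Iqsec2 (0.812), Kcng4 (0.807), Aspa (0.805), Cox10 (0.801), Sod2 (0.769), Mfn1 (0.769) and Mterf2 (0.729), and for Iars2 (0.732), which was not called. It was the lowest for Lrtm1 (0.874). In Esrra the library still lay below all 6 mTG libraries. The same held for Got1, Got2 and Kcng4, but the rule that named them required it.

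MKO_3259 was the highest mKO library for abundant fibre genes and some others: Hba-a2 (gap of 0.921 of the range), Ckm (0.915), Actn3 (0.914), Ndufa2 (0.911), Polrmt (0.894), Ldha (0.868), Jph2 (0.855), Pygm (0.809), Mrln (0.803), Pvalb (0.801), Pgm2 (0.786), Cox16 (0.785), Ampd1 (0.785), Sec61g (0.784), Myl3 (0.781) and Rxrg (0.753). It was the lowest for Vldlr (0.836), Rxra (0.777), Gpd2 (0.716) and the ratio of mitochondrial DNA to nuclear respiratory chain transcripts (0.802). MKO_3248 was the highest for Atp5g2 (0.906), at 70.5 scaled TPM against 15.7 in the next library, and for Ppargc1b (0.872).

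In mTG the library MCK_3875 was the highest for Pnpla2 (gap of 0.667 of the range), the Myh7 share of adult myosin (0.649) and the Ldhb share (0.632), and the lowest for Phkb (0.671), Pvalb (0.631) and Me1 (0.628). MCK_3876 was the highest for Cox6b1 (0.824) and Mterf2 (0.750), MCK_3887 the highest for Aspa (0.852) and the lowest for Lrtm1 (0.723), MCK_3890 the highest for Ppargc1b (0.733) and the share of nuclear rRNA genes (0.696), and MCK_3874 the highest for Pgm2 (0.817).

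The other reason to look again was a difference between mTG and mKO that itself differed between the ages by the limma test of that difference (values are the 3-month minus the 24-month log2 difference). It was positive for Lars2 (1.89), Igfn1 (1.73), Nnt (1.60), Lrtm1 (1.49), Kcnab1 (1.25), Esrrg (0.78), Ppargc1b (0.69), Casq2 (0.59), Esrrb (0.49) and Gys1 (0.30). It was negative for Ostn (-1.92), S100a9 (-1.86), Tmem267 (-1.48), Ces1d (-1.35), Hba-a2 (-1.26), Srebf1 (-1.23), Scd2 (-1.08), Cbr2 (-1.06), Stbd1 (-0.70) and Phkb (-0.45).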

How the results depend on the processing

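No paired analysis was possible because the columns carry no replicate number of the labels. Of 3261 values of 149 named genes over 22 settings, 3157 kept their direction and their side of the threshold, 48 lost the call, 19 gained it and 37 turned direction. The counts of genes higher and lower at 3 months were 682 and 9307 on unscaled TPM, 1894 and 1902 with a mean of at least 5 TPM, where fewer genes were tested, and 1557 and 997 with a fold of at least 1.5. At 24 months they were 695 and 9559, 1967 and 2017, and 1609 and 1021 in the same order, and 2173 and 1886 with the log2 rRNA share as covariate. The difference of the ages gave 101 and 66 on unscaled TPM, 160 and 102 with no filter, 119 and 75 with only the groups compared, 203 and 127 with array weights, 58 and 47 with the rRNA covariate and 143 and 109 with a fold of at least 1.5. Apart from the filter and the fold minimum, the cause was not tested. Leaving out each library gave 3003 to 3181 and 2959 to 3166 at 3 months, 3243 to 3370 and 3259 to 3409 at 24 months, and 129 to 554 (highest without MKO_3248) and 80 to 463 (lowest without MKO_3259) for the difference of the ages. The log2 rRNA share differed by -0.049 of nuclear protein-coding TPM, and its leave-one-out range was -1.12 to -0.869. The Myh7 share ranged from -0.748 (without MCK_3875, where it passed the threshold of the exact permutation test) to -0.264 percentage points and the mitochondrial to nuclear ratio from 0.251 to 0.571.

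Of the named genes, those higher on scaled and lower on unscaled TPM were Adipoq (-0.61), Cox6b1 (-0.31), Cycs (-0.37), Fasn (-0.16), Gabpa (-0.41), Gbe1 (-0.16), Gys1 (-0.23), Hba-a2 (-0.57), Iars2 (-0.74), Lars2 (-0.42), Ndufa2 (-0.64) and S100a9 (-0.26), of which Cycs, Gbe1 and Gys1 were called on scaled TPM. The other turns of direction were in genes not called at 3 months: Cox6b1 (-0.062), Iars2 (-0.0087) and Ndufa2 (-0.032) with quantile normalization, Nrf1 (0.0013) and Polrmt (0.12) with array weights, Ppargc1b (0.031) with the rRNA covariate, and S100a9 with a pseudocount of 0.1 (-0.14) or nuclear protein-coding genes only (-0.0010). Leaving out 1 library in turn gave both directions for Adipoq (-0.025 to 0.24), Esrrg (-0.16 to 0.038), Nrf1 (-0.084 to 0.029), Polrmt (-0.26 to 0.17, highest without MKO_3259), Ppargc1b (-0.12 to 0.031) and S100a9 (-0.13 to 0.22). The depth of each library is unknown, since TPM keep none.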
